A study of Torulaspora microellipsoides with 8 samples.

Results

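The transcripts described here encode the RNA polymerases I, II and III of the yeast *Torulaspora microellipsoides* and the factors that bring them to their promoters. A list of 52 gene names was drawn up by function and not from measured values, although earlier results of these data were known. A transcribed region belonged to the set if the deposited annotation named it for one of these 52. Of the 52 names, 33 were found, on 40 of the 4464 annotated regions, and the other 19 were not analysed here. All 40 regions passed the filter on low counts. Each name comes from the best match of a region among the proteins of *S. cerevisiae*, with a median identity of 71.3% for the member regions and 58.8% for all regions, and the functions given below are those known in that species.

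Nuclear transcription in yeast is divided among 3 polymerases. Polymerase I makes the precursor of the large ribosomal RNAs, polymerase II makes messenger RNAs, and polymerase III makes transfer RNAs and the smallest ribosomal RNA. The enzymes have related architectures: each is built around its own 2 largest subunits, which form the active centre, and a few small subunits are common to polymerases I and III or to all of them. Each also depends on its own initiation factors, the core factor and Rrn3 for polymerase I, TFIIIC and TFIIIB for polymerase III, and TFIIB, TFIIE, TFIIF and others for polymerase II, while the TATA-binding protein serves all 3 systems. In growing yeast, transcription by polymerases I and III follows the demand for ribosomes and transfer RNA.

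The comparison is between opaque and white cells of strain NCYC 2568. Opaque cells are the larger cells of dull sectors that arise in white colonies and have a higher DNA content, and white cells are small haploid budding yeast. RNA was sequenced from 3 opaque and 3 white log-phase cultures grown in YEG medium at 23 °C, described in the labels as triplicates, and counted on regions of the genome of a different strain, CLIB830T. The question was how the transcriptomes of the cell types differ, and the set below shows whether the machinery of the polymerases differed with them.

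Libraries held 24948791 to 50126043 counts, and the lowest count of any representative member region in any library was 183, for *RPC19*. Levels are CPM (counts scaled to the library) normalised by the trimmed mean of M-values (TMM), given as mean ± SD, and per kb of region where genes are compared with each other. Fold changes are opaque minus white on the log2 scale, with the standard error (SE) and the Benjamini-Hochberg adjusted p of edgeR's quasi-likelihood test over all 4404 tested regions. The median log2 fold change of those regions was -0.02, and upper-quartile or total-count scaling moved it by -0.12 and -0.16. The values are shares of the messenger RNA of bulk cultures, so less of a transcript in each cell and fewer cells that make it cannot be told apart, and they do not give transcripts per cell. Among 7 marker genes taken from RT-qPCR work on these cells, *RPL30*, *GAP1* and *MEP2* were higher in opaque cells and *SSA3*, *GLK1*, *CTT1* and *XBP1* were lower.

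Of the 33 names, 25 rose in opaque cells, 4 fell and 4 did not pass the test (edgeR, adjusted p under 0.05). Among all tested regions 74.2% changed, with 36.6% higher and 37.6% lower in opaque cells. The 25 of 33 thus compare with a background in which nearly as many regions rose as fell. At least 4-fold higher were 11 of the 33 names, against 5.93% of all tested regions, and 0 were at least 4-fold lower, against 5.25%. The opaque and white libraries did not overlap for 29 of the 33, against 77.8% of all tested regions. The median log2 fold change of the names was 0.77, with a range of -1.25 to 3.53. Over all 40 regions, 28 rose, 6 fell and 6 did not pass.

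The classes of the set differed widely in their values. All 13 analysed subunits specific to polymerase I, specific to polymerase III or shared by only these enzymes rose. Of them, 9 rose at least 4-fold, and the median log2 fold change was 2.48. The 3 subunits of polymerase II alone had a median of 0.27 and none changed 4-fold. Initiation factors of polymerase I had a median of 2.22 over 3 names, those of polymerase III -0.01 over 7 names, and those of polymerase II 0.37 over 4 names. These medians describe the classes and carry no test, since genes of one complex are not replicates of each other.

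**Figure D1:**
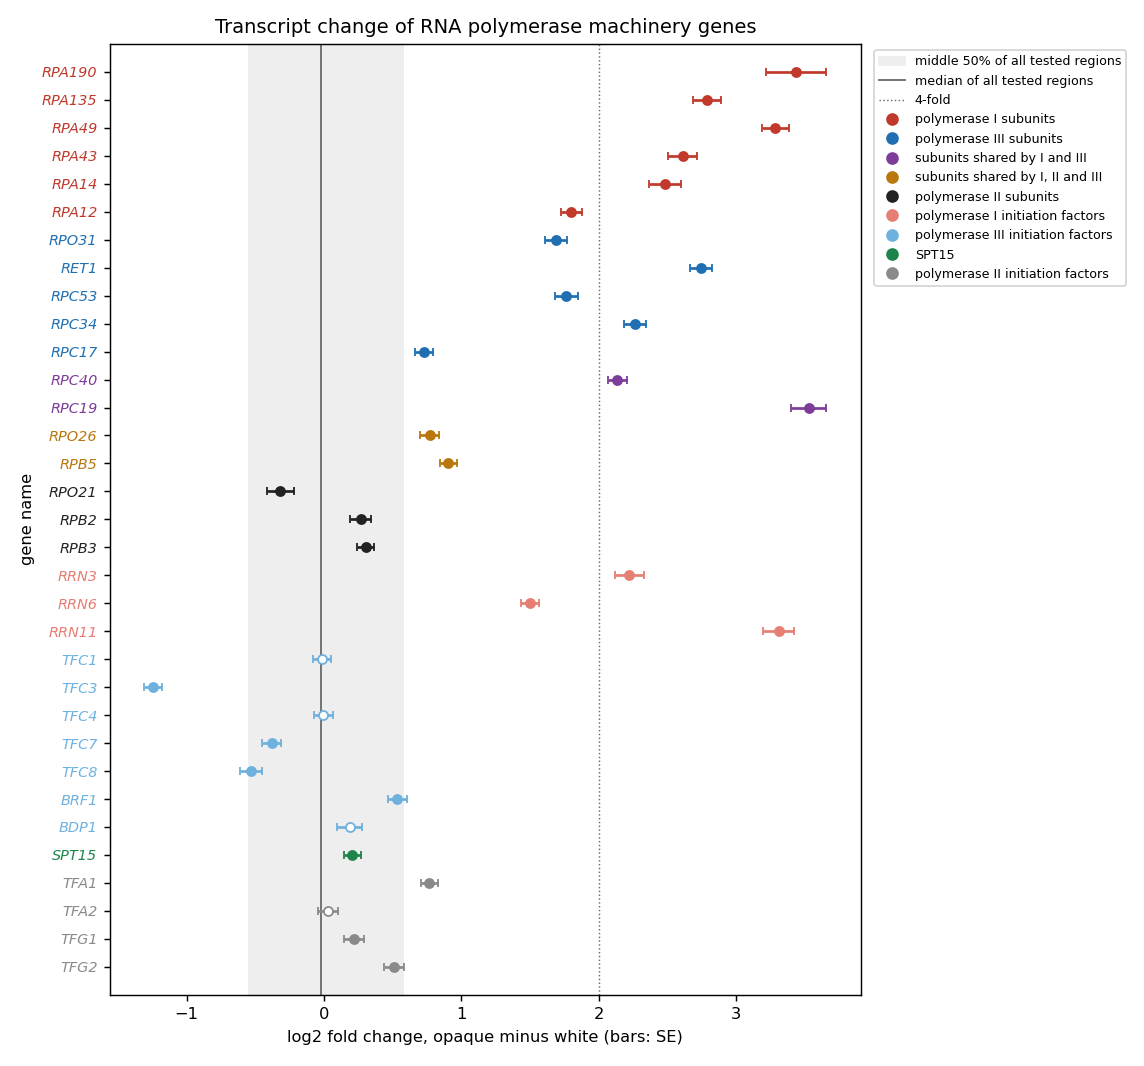
Log2 fold change of the 33 names, opaque minus white, by class, with bars for SE, open symbols for names that did not pass the test and grey shading for the middle 50% of all tested regions (-0.54 to 0.57). Polymerase I subunits lie between 1.80 and 3.44, whereas polymerase II subunits lie between -0.32 and 0.30.

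Polymerase I showed the largest summed change of any subunit class. Of its 7 listed specific subunits, 6 were found, and *RPA34* was not analysed here. The transcripts of the 6 found together made up 1669 ± 19.0 CPM in opaque cells and 224 ± 35.7 CPM in white cells (SD, n = 3 each), a ratio of 7.44. All 6 rose, 5 of them at least 4-fold. *RPA190*, which encodes the largest subunit, lies on the forward strand of scaffold 6 from 789564 to 794567 with 83.0% identity to its counterpart in *S. cerevisiae*. It was at 481, 499 and 461 CPM in the opaque libraries, against 61.0, 34.4 and 38.3 CPM in the white libraries. The cell types were far apart, but white library 1 stood above the other white libraries. The log2 fold change was 3.44 (SE 0.218, adjusted p = 3.9e-06, edgeR), and 3.71 without white library 1. *RPA135*, the second largest subunit, lies on scaffold 2 from 1038710 to 1042306.

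*RPA135* was at 588, 594 and 587 CPM in opaque libraries and at 97.2, 72.6 and 86.3 CPM in white libraries. It rose by 2.79 on the log2 scale (SE 0.0992, adjusted p = 6.0e-10, edgeR), less than *RPA190*, and its opaque libraries differed by only a few CPM. *RPA49*, a subunit of the heterodimer that helps polymerase I to start and to elongate, was at 247, 251 and 274 CPM in opaque libraries and at 29.7, 23.2 and 26.4 CPM in white libraries. It rose by 3.29 (SE 0.0953, adjusted p = 1.5e-10, edgeR), with no overlap. *RPA43*, the stalk subunit that contacts the initiation factor Rrn3, was at 183, 184 and 209 CPM in opaque libraries, against 34.8, 26.5 and 33.1 CPM in white libraries. Its log2 fold change was 2.61 (SE 0.104, adjusted p = 2.6e-09, edgeR). *RPA14*, its partner in the stalk, was at 62.2 ± 6.15 CPM in opaque cells and 11.2 ± 1.65 CPM in white cells (SD, n = 3 each), a rise of 2.48 (adjusted p = 5.6e-09, edgeR). *RPA12*, the small subunit needed for cleavage of the nascent RNA, had the smallest rise of the class, with 88.2 ± 4.52 CPM in opaque cells and 25.4 ± 2.00 CPM in white cells, or 1.80 on the log2 scale (adjusted p = 3.2e-09, edgeR).

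White library 1 was the highest of the 3 white libraries for all 6 polymerase I subunits and for 10 of the 13 subunits of polymerases I and III, and the lowest for none of them. Its part in the results was measured by leaving it out, which gave a median of 2.77 for polymerase I in place of 2.70. No class changed direction when any one library was left out.

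Polymerase III rose as well, by less. Of its 10 listed specific subunits, 5 were found, and *RPC82*, *RPC37*, *RPC31*, *RPC25* and *RPC11* were not analysed here. The 5 found summed to 824 ± 7.12 CPM in opaque cells and 215 ± 12.0 CPM in white cells (SD, n = 3 each), a ratio of 3.83. All 5 rose, 2 of them at least 4-fold. *RET1*, the second largest subunit, lies on scaffold 2 from 467308 to 470727, on the forward strand, and matches at 90.9% identity. It was at 313, 316 and 319 CPM in opaque libraries and at 51.2, 42.7 and 47.8 CPM in white libraries. It rose by 2.74 on the log2 scale (SE 0.0772, adjusted p = 1.3e-10, edgeR), the largest rise among the specific subunits of this enzyme. *RPO31*, the largest subunit, was at 275, 277 and 246 CPM in opaque libraries, against 90.0, 79.5 and 78.5 CPM in white libraries. The groups did not overlap, and the log2 fold change was 1.69 (SE 0.0781, adjusted p = 5.3e-09, edgeR).

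*RPC34*, of the subcomplex through which polymerase III contacts TFIIIB, was at 64.2, 61.4 and 67.9 CPM in opaque libraries and at 13.1, 14.2 and 13.0 CPM in white libraries. It rose by 2.26 (SE 0.0793, adjusted p = 5.4e-10, edgeR). *RPC53*, which acts in termination and reinitiation, was at 114 ± 3.74 CPM in opaque cells and 33.6 ± 3.79 CPM in white cells (SD, n = 3 each). It rose by 1.76 (SE 0.0840, adjusted p = 6.8e-09, edgeR), again with no overlap of libraries. *RPC17*, a stalk subunit, rose least, with 62.9 ± 1.53 CPM in opaque cells and 37.9 ± 1.55 CPM in white cells (SD, n = 3 each). This was a rise of 0.73 (SE 0.0660, adjusted p = 1.6e-06, edgeR), and the members of this one enzyme ranged from 0.73 to 2.74.

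The subunits that polymerases I and III share rose with them. *RPC19*, which with Rpc40 forms the platform on which both enzymes are assembled, had the largest fold change of all 33 names, except without white library 1, when it was at 3.64 and *RPA190* at 3.71. It was at 70.0, 67.8 and 77.5 CPM in opaque libraries and at 7.47, 4.99 and 6.30 CPM in white libraries. Every opaque library was thus far above every white one, and the gene rose by 3.53 (SE 0.129, adjusted p = 8.6e-10, edgeR). Its region lies on the reverse strand of scaffold 5 from 678229 to 678519. *RPC40* was at 339, 324 and 358 CPM in opaque libraries and at 82.7, 75.2 and 74.5 CPM in white libraries. It rose by 2.14 (SE 0.0705, adjusted p = 3.6e-10, edgeR), and by 1.98, just under 4-fold, with scaling by total counts.

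The subunits common to all 3 enzymes rose by more than those of polymerase II alone and by less than those of polymerases I and III other than *RPC17*. *RPB5* was at 223, 218 and 240 CPM in opaque libraries and at 126, 120 and 117 CPM in white libraries. It rose by 0.91 (SE 0.0647, adjusted p = 2.0e-07, edgeR). *RPO26* was at 147, 151 and 159 CPM in opaque libraries, against 93.1, 92.4 and 82.4 CPM in white libraries. It rose by 0.77 (SE 0.0692, adjusted p = 1.5e-06, edgeR). The groups of neither gene overlapped. *RPC10*, *RPB8* and *RPB10*, the other subunits of this class, were not analysed here.

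Polymerase II subunits changed by at most 1.25-fold in either direction. The 3 specific subunits that were found summed to 1364 ± 76.4 CPM in opaque cells and 1284 ± 81.0 CPM in white cells (SD, n = 3 each), a ratio of 1.06. *RPO21*, the largest subunit, whose tail coordinates messenger RNA processing, was the single subunit of any polymerase that fell. It was at 404, 394 and 312 CPM in opaque libraries and at 446, 498 and 439 CPM in white libraries. The groups did not overlap, although opaque library 3 lay well below the other opaque libraries. The log2 fold change was -0.32 (SE 0.0997, adjusted p = 0.014, edgeR), and -0.22 without opaque library 3 (adjusted p = 0.025, edgeR). That library was lower for long regions in general, with a median log2 difference from the other opaque libraries of -0.12 over 110 regions of at least 4 kb, against 0.03 over 1753 regions under 1 kb. The part of this length difference in the value of *RPO21*, at 4584 bp, was not tested.

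The highest mean CPM of the set in both cell types, though not per kb, was that of *RPB2*, the second largest subunit. It was at 850, 818 and 780 CPM in opaque libraries and at 666, 739 and 630 CPM in white libraries. It rose by 0.27 (SE 0.0748, adjusted p = 0.0073, edgeR) with TMM scaling, but no longer passed with upper-quartile scaling (0.15, adjusted p = 0.065) or total counts (0.11, adjusted p = 0.12). *RPB3*, the counterpart of Rpc40 in polymerase II, was at 171, 178 and 187 CPM in opaque libraries and at 147, 138 and 149 CPM in white libraries. It rose by 0.30 (SE 0.0646, adjusted p = 0.0013, edgeR), and did not pass with total counts, at 0.14 (adjusted p = 0.087). The subunits of polymerase II that were found therefore had small changes. *RPB2* and *RPB3* kept their direction under every scaling, but their calls depended on how libraries were scaled. *RPO21* was lower under every scaling.

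**Figure D2:**
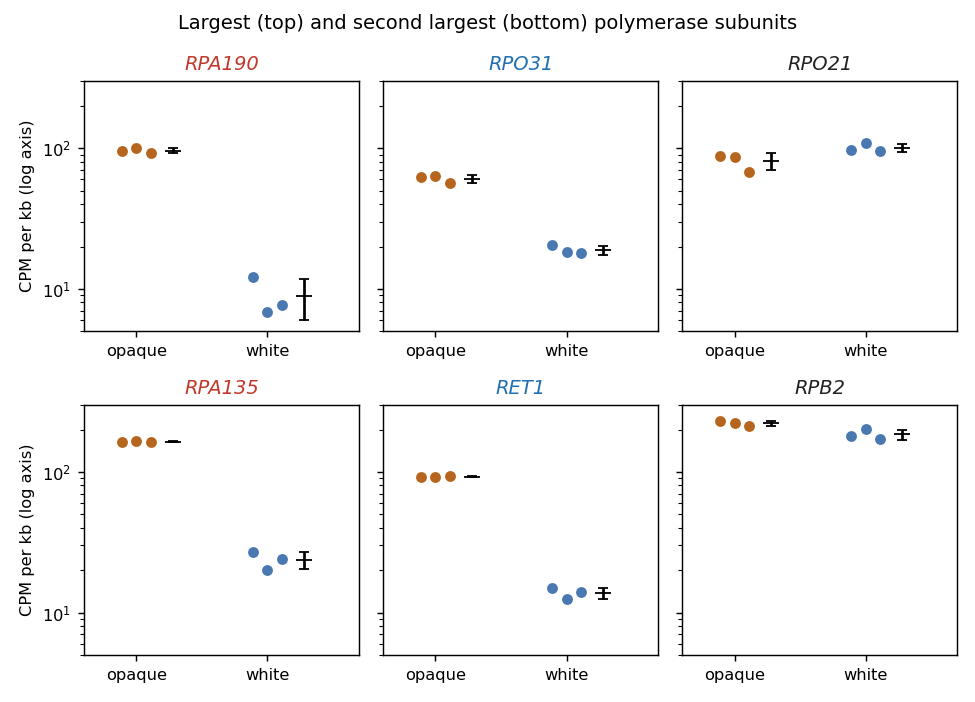
CPM per kb, on a log axis, of the largest (top row) and second largest (bottom row) subunits of polymerases I, III and II in each opaque and white library, with mean and SD (n = 3) in black. *RPA190* averaged 96.0 in opaque and 8.90 in white cells, against 80.7 and 101 for *RPO21*.

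The largest subunits changed place in the order of levels. Per kb, *RPA190* was at 96.0 ± 3.79 CPM in opaque cells and 8.90 ± 2.88 CPM in white cells, while *RPO21* was at 80.7 ± 11.1 CPM in opaque cells and 101 ± 7.07 CPM in white cells (SD, n = 3 each). The ratio of *RPA190* to *RPO21* within a library does not depend on how libraries are scaled, and was 1.09, 1.16 and 1.36 in opaque libraries, against 0.125, 0.0632 and 0.0798 in white libraries. The ratio of *RPA135* to *RPB2*, the second largest subunits, was 0.707, 0.742 and 0.769 in opaque libraries and 0.149, 0.10 and 0.140 in white libraries. All opaque ratios were above all white ones in both pairs. The ratios differed by 3.80 and 2.53 on the log2 scale, each with an exact two-sided permutation p of 0.1, the smallest that 3 against 3 libraries can give, and an adjusted p of 0.12 over the 6 ratios compared.

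For polymerase III, the ratio of *RPO31* to *RPO21* was 0.713, 0.737 and 0.827 in opaque libraries and 0.211, 0.167 and 0.187 in white libraries, a difference of 2.01. The ratio of *RET1* to *RPB2* was 0.396, 0.415 and 0.439 in opaque libraries, against 0.0826, 0.0621 and 0.0816 in white libraries, a difference of 2.48. Neither pair overlapped (exact permutation p = 0.1 for each, adjusted p = 0.12). Between polymerases I and III the 2 kinds of subunit gave different pictures. The ratio of the largest subunits, *RPA190* to *RPO31*, was 1.53, 1.58 and 1.64 in opaque libraries and 0.593, 0.378 and 0.427 in white libraries, a difference of 1.79 (exact permutation p = 0.1, adjusted p = 0.12). The ratio of the second largest, *RPA135* to *RET1*, was 1.78, 1.79 and 1.75 in opaque libraries and 1.81, 1.62 and 1.72 in white libraries. These overlapped, with a difference of 0.05 (exact permutation p = 0.4, adjusted p = 0.4).

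**Figure D3:**
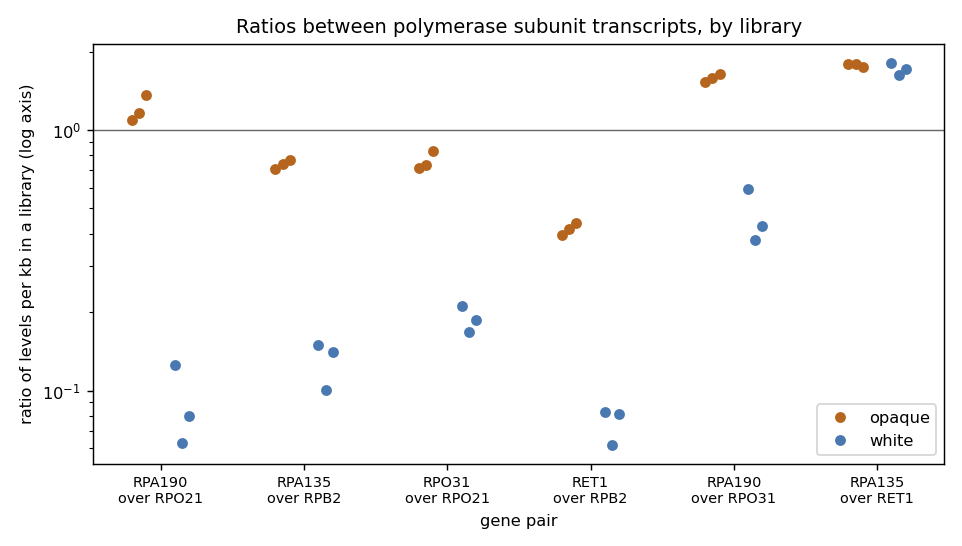
Ratio of the levels per kb of 2 subunit transcripts in each opaque and white library, on a log axis, with a line at 1. Opaque and white libraries are apart for the first 5 pairs and overlap for *RPA135* over *RET1*, at means of 1.77 and 1.71.

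Within polymerases I and III, the levels of the specific subunits that were found were closer to each other in opaque cells. Per kb, the most abundant polymerase I subunit transcript was 2.54 times the least abundant in opaque cells and 7.60 times in white cells. For polymerase III these ratios were 2.15 in opaque cells and 5.72 in white cells. For polymerase II they were 2.75 in opaque cells and 1.84 in white cells, the other way round. In white cells *RPA190* and *RPA12* were the ends of the polymerase I range, at 8.90 ± 2.88 and 67.6 ± 5.33 CPM per kb (SD, n = 3). The genes with the lowest white level per kb, *RRN11*, *RPA190*, *RRN6*, *RET1* and *RRN3*, are all of polymerases I and III, and in opaque cells *RRN11* and *RRN6* were still among the lowest 6 of the 33, at 47.7 ± 2.26 and 33.7 ± 1.46 CPM per kb. *RPB5* and *RPO26*, common to all 3 enzymes, were at the top of the order per kb in both cell types. In opaque cells they were at 352 ± 18.0 and 341 ± 14.0 CPM per kb and *RPC40* at 338 ± 16.6 CPM per kb. These 3 means lay close together, although *RPB5* was above *RPC40* in every opaque library. In white cells *RPB5* and *RPO26* were at 188 ± 6.68 and 200 ± 13.4 CPM per kb. *RPB2* was close to them at 185 ± 15.1 CPM per kb, and *RPC40* was at 77.1 ± 4.50 CPM per kb. Levels per kb also depend on how much of a transcript its region covers, and no test was made of the ranges.

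**Figure D4:**
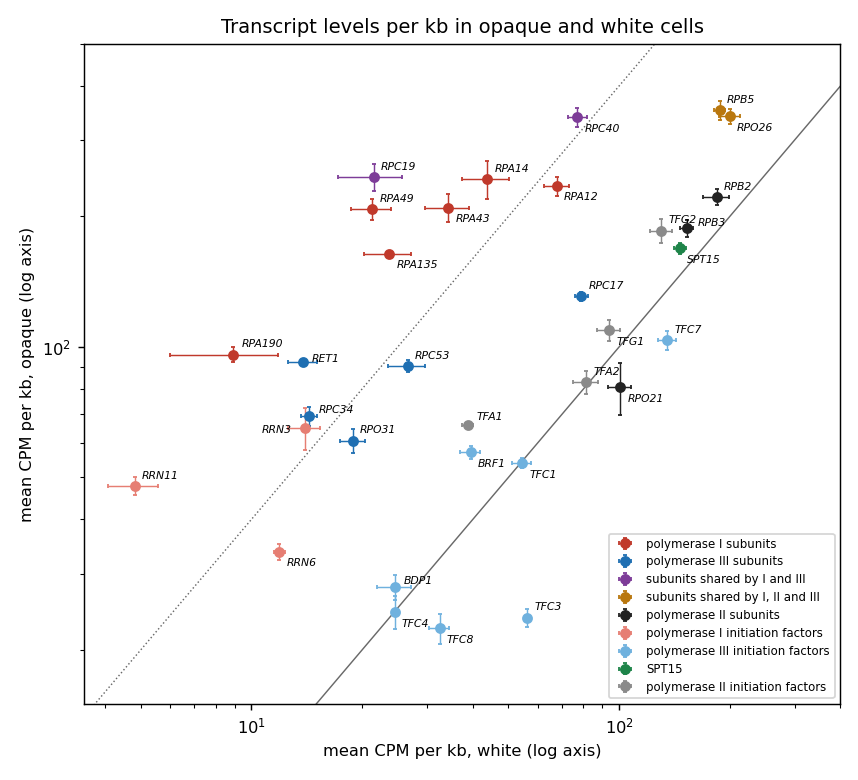
Mean CPM per kb of the 33 names in opaque cells (vertical) against white cells (horizontal), both on log axes, with bars for SD (n = 3), a solid line at equal levels and a dotted line at 4-fold higher in opaque cells. In opaque cells the polymerase I subunits lie between 96.0 and 244, and in white cells between 8.90 and 67.6.

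The 3 initiation factors of polymerase I that were found, of 7 listed, rose with their enzyme. *RRN5*, *RRN7*, *RRN9* and *RRN10* were not analysed here. *RRN11*, a component of the core factor that binds the ribosomal RNA promoter, was at 62.0, 62.6 and 67.5 CPM in opaque libraries and at 6.81, 5.32 and 7.24 CPM in white libraries. *RRN11* rose by 3.31 (SE 0.113, adjusted p = 4.6e-10, edgeR), close to the largest rise of the set. *RRN6*, another component of the core factor, was at 87.6, 84.9 and 92.4 CPM in opaque libraries and at 32.2, 30.0 and 31.4 CPM in white libraries. It rose by 1.50 (SE 0.0662, adjusted p = 3.5e-09, edgeR), and its region is the least conserved of the representative ones, at 36.6% identity. *RRN3*, which makes polymerase I competent to initiate, is split in the annotation into 3 consecutive regions on the reverse strand of scaffold 1, between 861952 and 863841. The one with the most counts was at 53.4, 58.3 and 66.6 CPM in opaque libraries and at 13.1, 11.3 and 13.7 CPM in white libraries. It rose by 2.22 (SE 0.107, adjusted p = 7.4e-09, edgeR), with 2.23 and 1.76 for the other regions, which also rose.

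In contrast, initiation factors of polymerase III did not rise as a group. Among all tested regions 36.6% rose and 37.6% fell, with a median log2 fold change of -0.02. Of the 7 factors, 1 rose, 3 fell and 3 did not pass, with a median of -0.01. Their transcripts summed to 575 ± 15.8 CPM in opaque cells and 707 ± 21.4 CPM in white cells (SD, n = 3 each), a ratio of 0.813. The genes that fell encode parts of TFIIIC, which binds the internal promoters of transfer RNA genes and places TFIIIB upstream. *TFC3*, the large subunit that recognises the B box, was at 82.5, 84.5 and 76.8 CPM in opaque libraries and at 193, 197 and 188 CPM in white libraries. Every opaque library was far below every white one, and the log2 fold change was -1.25 (SE 0.0634, adjusted p = 1.2e-08, edgeR). The region lies on the reverse strand of scaffold 4 from 616411 to 619833 and matches at 49.8% identity. *TFC8* was at 40.2, 41.4 and 35.6 CPM in opaque libraries and at 57.3, 59.9 and 52.8 CPM in white libraries. It fell by 0.53 on the log2 scale (adjusted p = 1.1e-04, edgeR), without overlap.

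*TFC7* was at 130 ± 6.54 CPM in opaque cells and 169 ± 9.32 CPM in white cells (SD, n = 3 each). It fell by 0.38 (adjusted p = 3.7e-04, edgeR), again without overlap. *TFC4*, the TFIIIC subunit that contacts TFIIIB, was at 73.7 ± 6.47 CPM in opaque cells and 74.0 ± 0.388 CPM in white cells (SD, n = 3 each), at -0.01 on the log2 scale (SE 0.0708, adjusted p = 0.95, edgeR). *TFC1* was at 102 ± 2.87 CPM in opaque cells and 103 ± 6.24 CPM in white cells, with -0.01 (SE 0.0650, adjusted p = 0.87, edgeR), and passed as lower, at -0.17, with scaling by total counts (adjusted p = 0.027). None of the 5 TFIIIC genes measured rose, where 36.6% of all tested regions did, and *TFC6* was not analysed here. Of TFIIIB, which holds polymerase III at the start site, *BRF1* was at 98.4, 101 and 105 CPM in opaque libraries and at 73.5, 65.2 and 71.9 CPM in white libraries. It rose by 0.53 (SE 0.0664, adjusted p = 2.2e-05, edgeR). Its partner *BDP1* was at 47.0 ± 3.02 CPM in opaque cells and 41.3 ± 4.48 CPM in white cells, with 0.19 (SE 0.0897, adjusted p = 0.083, edgeR), and passed at 0.25 without white library 1 (adjusted p = 0.030).

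*SPT15*, the TATA-binding protein, was at 120, 118 and 125 CPM in opaque libraries and at 107, 108 and 100 CPM in white libraries. The groups lay close together without overlap. It rose by 0.21 (SE 0.0606, adjusted p = 0.0094, edgeR) with TMM scaling, and did not pass with upper-quartile scaling (0.09, adjusted p = 0.17) or total counts (0.05, adjusted p = 0.41).

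General factors of polymerase II showed small changes. *TFA1*, the large subunit of TFIIE, was at 74.6, 73.6 and 73.9 CPM in opaque libraries and at 45.2, 43.0 and 42.4 CPM in white libraries. It rose by 0.77 (SE 0.0613, adjusted p = 5.5e-07, edgeR). *TFA2*, its partner, was at 78.9 ± 4.84 CPM in opaque cells and 77.4 ± 6.02 CPM in white cells (SD, n = 3 each), with 0.03 (SE 0.0747, adjusted p = 0.74, edgeR). The subunits of TFIIE thus had different values, although the difference between them was not tested. *TFG2*, the smaller of the main subunits of TFIIF, was at 219, 200 and 194 CPM in opaque libraries and at 145, 152 and 133 CPM in white libraries. It rose by 0.51 (SE 0.0737, adjusted p = 7.5e-05, edgeR). *TFG1*, the larger, was at 244, 227 and 218 CPM in opaque libraries and at 189, 213 and 189 CPM in white libraries. It rose by 0.22 (SE 0.0721, adjusted p = 0.016, edgeR) with TMM scaling. The call was lost with the other scalings, and without opaque library 1, white library 1 or white library 3 (0.16, 0.17 and 0.18). *SUA7*, which encodes TFIIB, was not analysed here.

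Of the 33 names, 5 had more than 1 region. Besides the pieces of *RRN3*, these were short regions of 57 to 204 bp on other scaffolds than the main one. A second region named for *RPA190*, 204 bp on scaffold 4 at 30.9% identity, rose by 2.14 (adjusted p = 1.5e-05, edgeR) at 4.57 ± 1.19 CPM in opaque cells and 1.02 ± 0.217 CPM in white cells. Short regions named for *RET1* and *RPO21*, at 29.0% and 35.1% identity, were lower in opaque cells, with log2 fold changes of -1.05 and -1.08 (edgeR, adjusted p = 0.0021 and 0.0050), although the main region of *RET1* rose. A 57 bp region named for *RPA190* and a 72 bp one named for *RPO31* did not pass (0.36 and -0.26, adjusted p = 0.32 and 0.57, edgeR). When the counts of a name's regions were added up, 3.35 was obtained for *RPA190* and -0.37 for *RPO21*. Names with a single region also moved in that fit, as *RPA135* did from 2.79 to 2.74. No member region overlapped another region, and each was covered over 100% of its length in every library.

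The members were then set beside their nearest regions on the chromosome. *RPA43* and *RPA190* are divergent neighbours on scaffold 6, with 921 bp between their regions, as they are by their systematic names in *S. cerevisiae* (YOR340C and YOR341W), and rose by 2.61 and 3.44. No other members of different names were neighbours. Among all tested regions, the median log2 fold change was -0.02 and 5.93% were at least 4-fold higher. The 19 flanking regions of the 11 names at least 4-fold higher that were not themselves members had a median log2 fold change of 0.25, and 2 of them were at least 4-fold higher. These were *NOC2*, which acts in building the large ribosomal subunit, next to *RET1* with 3.13, and *DBP2*, an RNA helicase gene, next to *RPC19* with 3.67. The 44 flanking regions of the other 22 names had a median of 0.01, and 2 of them were at least 4-fold higher. One was *SDA1*, also of ribosome assembly, which rose by 4.42 (adjusted p = 4.4e-08, edgeR) beside *BRF1* with 0.53, and the other *MNN4*, beside *RPA12*, with 2.03. Opposite values were also found side by side, as for *RPC34*, with 2.26, and the transporter gene *ADY2*, with -2.89 (adjusted p = 6.8e-09, edgeR).

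**Figure D5:**
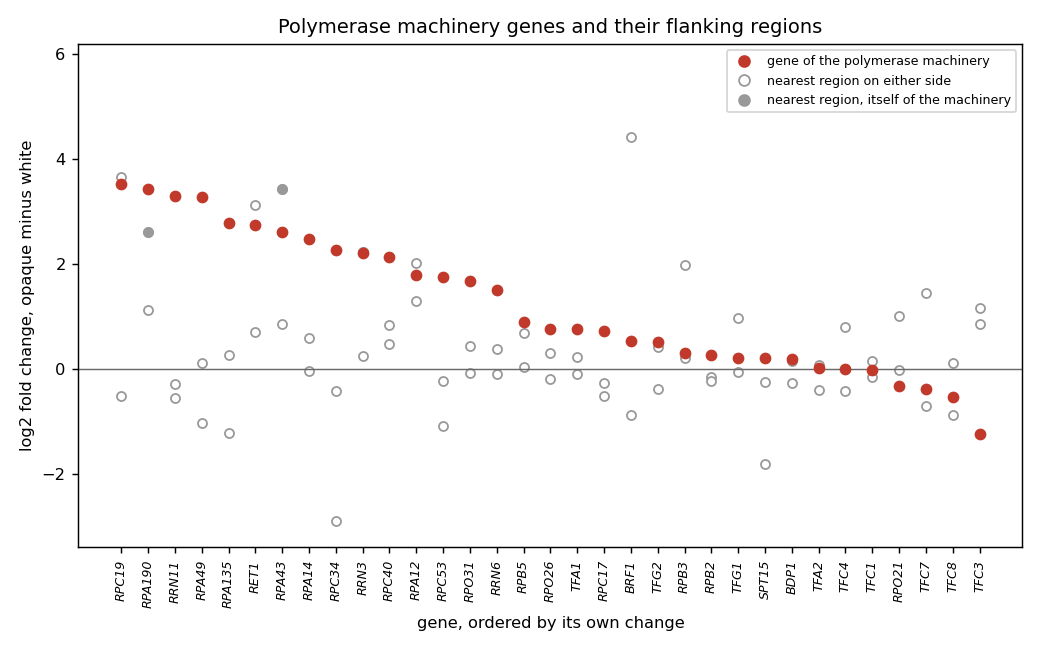
Log2 fold change, opaque minus white, of each of the 33 names (red) and of the nearest regions on either side (open circles, or filled grey for a region that is itself of the machinery), ordered by the change of the name. The 19 flanking regions outside the machinery beside names above 2 have a median of 0.25, and 2 of them lie above 2.

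Other genes that work with the polymerases were then examined from lists written by function. Of 6 tested assembly factors, which build polymerases in the cytoplasm and bring them to the nucleus, 6 rose, with a median log2 fold change of 1.79. *RBA50* was at 140 ± 0.901 CPM in opaque cells and 16.3 ± 2.21 CPM in white cells (SD, n = 3 each), a rise of 3.10 (adjusted p = 2.0e-10, edgeR). *NPA3*, a GTPase needed for nuclear import of polymerase II, was at 112 ± 1.79 CPM in opaque cells and 35.9 ± 2.80 CPM in white cells, a rise of 1.64 (adjusted p = 2.6e-09, edgeR). Among 6 other genes of polymerase I transcription, 3 rose, 1 fell and 2 did not pass. One that rose, *FOB1*, at 1.80, was measured on a region of 78 bp at 40.7% identity with 9 to 79 counts per library. *NSR1*, a nucleolar protein also needed for processing ribosomal RNA, was at 1083 ± 6.11 CPM in opaque cells and 70.8 ± 14.6 CPM in white cells, a rise of 3.94 (adjusted p = 9.0e-09, edgeR). *TOP1*, topoisomerase I, rose by 1.59 (adjusted p = 3.1e-08, edgeR), and *REB1*, a DNA-binding factor, fell by 1.96 (adjusted p = 1.7e-08, edgeR) on a region of 219 bp at 29.1% identity. All 3 tested genes of the other polymerase III factors rose, of which *LHP1*, which binds new polymerase III transcripts, rose by 2.66 and *PZF1*, TFIIIA, by 0.31 (adjusted p = 6.5e-08 and 0.0013, edgeR). The other gene of that list, *SUB1*, at 0.23, did not pass with total counts (0.07, adjusted p = 0.30) or upper-quartile scaling (0.11, adjusted p = 0.14), so that 2 of 3 were then higher, as they were without white library 3.

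The remaining lists, of TFIIA, TFIIH and the TAFs, of Mediator and of elongation factors, each held genes that rose and genes that fell. Among all tested regions, 36.6% were higher and 37.6% lower in opaque cells. Of 20 tested genes of TFIIA, TFIIH and the TAFs, 8 rose, 6 fell and 6 did not pass, with a median of 0.10. *SSL1* and *TFB1* of TFIIH rose by 1.07 and 0.72 (adjusted p = 1.9e-07 and 1.1e-06, edgeR), and *TAF4* and *TAF14* had log2 fold changes of -0.75 and -0.40 (edgeR, adjusted p = 2.4e-06 and 1.4e-04). Other TFIIH genes, picked out after their values were seen, also rose, *TFB2* by 0.71, *SSL2* by 0.57 and *TFB3* by 0.39, and these kept their calls under the other scalings. Not all TFIIH genes did so, since *KIN28* rose by 0.22 with TMM scaling but lost its call under the other scalings, and *TFB4*, at -0.02, did not pass (adjusted p = 0.77, edgeR) and was lower, at -0.18, with total counts (adjusted p = 0.026). Over the whole list, 6 genes rose and 9 fell with total counts, and 6 rose and 8 fell with upper-quartile scaling. Of 12 tested Mediator genes, 3 rose, 4 fell and 5 did not pass, with a median of -0.13. *SRB8*, of the kinase module, rose by 0.78 (adjusted p = 1.3e-06, edgeR), and *GAL11* and *SIN4*, of the tail, fell by 0.58 and 0.38 (adjusted p = 2.2e-05 and 1.8e-04, edgeR). *MED11* rose by 2.00 on a region of 72 bp (adjusted p = 9.0e-05, edgeR). Of 16 elongation factors, 7 rose, 2 fell and 7 did not pass, with a median of 0.10. *CTK2* and *BUR2*, cyclins of the kinases that act on elongating polymerase II, rose by 0.90 and 0.74 (adjusted p = 4.7e-06 and 2.8e-06, edgeR), and *SPT4* and *RTF1* fell by 0.24 and 0.21 (adjusted p = 0.024 and 0.0098, edgeR). With upper-quartile scaling or total counts, 8 Mediator genes and 5 elongation factors fell.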

How the data were processed

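The authors aligned the reads with STAR to the CLIB830T genome, assembled transcripts with cufflinks and named each region for its best BLAST match in *S. cerevisiae*. They deposited whole-number counts per region and library without normalization, with the covered fraction of each region and, in the annotation, its percent identity. The fraction was used only to describe regions, and the percent also to filter or choose regions in alternatives. Covered bases replaced lengths in an alternative for ratios. Whether counting used the strand or both reads of a pair is not given in the sources used here. Labels and methods differ on culture volume and shaking speed. The members and lists were chosen with earlier results of these data known.

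Counts of 4464 regions were analysed with edgeR 4.0.16 in R 4.3.3 (TMM, filterByExpr, robust quasi-likelihood fit, cell type as the factor). SE is the log2 fold change over the square root of F. TMM factors were 0.941 to 1.091. A name was represented by its region with the highest mean count. Members were described per library if among the 3 smallest p of a class, in a ratio, or against their class, and others by mean. From other lists, the 2 smallest p per direction were named, and some further genes after their values were seen. Scripts were tested on simulated data. DESeq2 1.42.0 and other scalings and filters were alternatives.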

Additional observations from a re-analysis of the deposited data

How the results depend on the processing

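Whether each of the 33 names passed, and in which direction, was unchanged for all of them without a filter, with the replicate number as a block and with the region of largest length times identity. With the block, 25 names rose and 4 fell, as without it, so it changed no call of a member. Deviations of same-numbered libraries correlated at -0.04, -0.04 and 0.18, against -0.19 to 0.21 for differently numbered ones. With 3 libraries per cell type, these values cannot show whether the culture numbers pair the cultures. The block gave 2 lower genes in place of 1 among the other polymerase I factors. That count was also 2 with at least 10 counts, summed counts, no filter, upper-quartile scaling and total counts. With total counts 21 names rose, and with upper-quartile scaling 22. Medians of log2 fold changes with total counts were 2.54 for polymerase I subunits, 1.60 for polymerase III subunits, 2.67 for subunits shared by I and III, 0.68 for those shared by all, 2.06, -0.17 and 0.21 for factors of polymerases I, III and II, and 0.051 for *SPT15*. With upper-quartile scaling they were 1.65 for polymerase III subunits, 0.72 for subunits shared by all, 2.11, -0.13 and 0.25 for factors of polymerases I, III and II, and 0.092 for *SPT15*. The median of polymerase I factors was 2.10 with counts summed per name and 2.77 with regions of at least 200 bp and 40% identity, which leaves out *RRN6*. With counts and lengths summed per name, the ratio of *RPA135* to *RET1* differed by 0.12 (exact permutation p = 0.1). Lower Mediator genes were 8 and lower elongation factors 5 with either scaling.

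Small values changed sign without passing. *TFC1* was at 0.000316 and *TFC4* at 0.00682 with DESeq2. *TFA2* was at -0.00497 with at least 10 counts, -0.018 summed per name, -0.127 with total counts and -0.087 with upper-quartile scaling. Leaving out 1 library gave -0.071 to 0.00493 for *TFC1*, -0.084 to 0.037 for *TFC4* and -0.026 to 0.093 for *TFA2*. The medians then ranged from 1.67 to 1.81 for polymerase III subunits and from -0.084 to -0.004 for polymerase III factors, 1 to 3 elongation factors and 1 to 2 other polymerase I factors fell, and 24 to 25 of the 33 names rose. The cause of these changes was not tested.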
